A study of Mus musculus with 6 samples.

Results

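The regions described here are the open chromatin regions that the deposited table assigns to a protein-coding gene with a symbol of Zfp followed by a number, the mouse zinc finger protein genes. Of 58172 regions in the table, 241 met this rule, in 214 genes on 19 chromosomes. Promoter regions, with a centre within 1 kb of the assigned gene's start, numbered 205 in 202 genes. The other 36 regions, in 32 genes, lay between 1128 and 4996 bp from the start that the table assigns. Zfp36 (920 bp) and Zfp644 (939 bp) had the promoter regions closest to the 1 kb limit, and Zfp711 (1128 bp) and Zfp236 (1282 bp) had regions just beyond it. Genes were ordered along each chromosome, and runs of 3 or more of them with neighbours at most 500 kb apart were taken as clusters. This placed 132 genes in 22 clusters on 10 chromosomes, with 125 promoter regions, and left 82 scattered genes, with 80. Only member genes were counted, so genes with a Znf or another symbol, or without a region, did not extend a run.

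The assay was ATAC-seq, which reads open DNA through cuts made by the Tn5 transposase, on lung endothelial cells isolated from mice. The WT group was 3 Cre-negative libraries, and the CSE-KO group was 3 Cre-positive libraries labelled as knockout of cystathionine gamma-lyase (CSE). This enzyme, encoded by Cth, makes cysteine from cystathionine. All 3 libraries labelled knockout carried Cre and no WT library did, so that Cre and the loss of the enzyme cannot be told apart. No source used here gives the strain, the age, the Cre driver or the number of animals. The p-values thus cover only the spread among these 6 libraries, which may be technical.

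The deposited values were already scaled between libraries, with totals of 5242490 to 5547417. The CSE-KO columns skipped 35 to 39 of the whole numbers up to 100, as values do where 1 read is worth about 1.53 to 1.63, which puts the reads in regions at about 3340000 to 3630000. No number was skipped in WT, where 1 read was thus worth at most about 1, and the CSE-KO values rest on fewer reads. The Cth promoter region (chr3:157924836-157925422) had values of 195, 157 and 167 in WT against 11, 6 and 2 in CSE-KO, 27.4-fold lower on the log2(value + 1) scale (limma adjusted p = 0.00307). Promoter regions were found for 13 of 15 endothelial marker genes, 2 of 11 leukocyte, 3 of 11 epithelial and 3 of 12 mural and fibroblast marker genes. Their summed values ran from 1480 to 1577 in WT and from 1630 to 1895 in CSE-KO for the endothelial list, and from 247 to 284 and from 175 to 186 for the leukocyte list. The epithelial sums were 66 to 71 and 57 to 89, and the mural and fibroblast sums were 154 to 159 and 228 to 263. Of the 13 endothelial regions 3 rose and 2 fell, and 1 of the 2 leukocyte ones fell (limma). Of the 3 epithelial regions 1 rose, as did 1 of the 3 mural and fibroblast ones. Among all protein-coding promoter regions 4.93% rose and 1.93% fell. Cdh5 and Cldn5 had promoter regions, while Pecam1 and Sox17 had none under those symbols. Ptprc, Cd3e, Sftpc and Col3a1 also had none, while Spi1, Cd68, Epcam and Col1a1 had them. The part of cell makeup in the results below was not tested.

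Most Zfp genes encode proteins with arrays of C2H2 zinc fingers, each of which contacts a few bases of DNA. A large group of them also carries a KRAB domain, which recruits the corepressor Trim28 and with it enzymes that methylate histones and DNA. Many KRAB zinc finger proteins bind transposable elements, and their genes arose by repeated local duplication, which left them in dense clusters. A few members are of another kind: Zfp36, Zfp36l1 and Zfp36l2 encode CCCH zinc finger proteins that bind AU-rich elements in messenger RNA and promote its decay.

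The promoter sequences below belong to the 3 Zfp genes with the largest rises and the 3 with the largest falls among the promoter regions that passed the test (described further down) and contained the gene's start in the RefSeq promoter table. The matches marked in them differ from promoter to promoter, and their shortness follows from the motifs chosen. Longer elements with mismatches were not searched. Each runs 5′ to 3′ on the gene's strand from 250 bases before to 50 bases after the start (RefSeq, GRCm38.p6, the mm10 assembly). Capitals mark matches to 9 short motifs searched on both strands: CCAAT (NF-Y), GGGCGG (Sp1), CCGGAAG (ETS), ACTACAATT (part of the Zfp143 site), CACGTG (E-box), TGACGTCA (CRE), CGCATGCG (NRF1), AAGATGGCG (YY1) and CTCGCGAG (Kaiso). A match on the other strand appears as its reverse complement, for example ATTGG for CCAAT, and in Zfp947 a CCAAT match on the other strand overlaps GGGCGG.
Zfp65: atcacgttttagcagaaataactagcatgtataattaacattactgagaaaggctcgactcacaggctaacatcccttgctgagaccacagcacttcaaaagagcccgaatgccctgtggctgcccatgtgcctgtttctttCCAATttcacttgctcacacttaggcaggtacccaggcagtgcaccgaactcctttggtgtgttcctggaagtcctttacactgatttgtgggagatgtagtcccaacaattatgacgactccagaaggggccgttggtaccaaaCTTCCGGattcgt
Zfp184: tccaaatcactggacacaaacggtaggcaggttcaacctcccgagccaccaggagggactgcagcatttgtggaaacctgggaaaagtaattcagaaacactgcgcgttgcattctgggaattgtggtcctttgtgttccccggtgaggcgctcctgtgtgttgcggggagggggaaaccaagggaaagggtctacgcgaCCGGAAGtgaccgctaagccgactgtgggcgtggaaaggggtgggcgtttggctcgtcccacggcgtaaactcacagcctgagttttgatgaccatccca
Zfp874b: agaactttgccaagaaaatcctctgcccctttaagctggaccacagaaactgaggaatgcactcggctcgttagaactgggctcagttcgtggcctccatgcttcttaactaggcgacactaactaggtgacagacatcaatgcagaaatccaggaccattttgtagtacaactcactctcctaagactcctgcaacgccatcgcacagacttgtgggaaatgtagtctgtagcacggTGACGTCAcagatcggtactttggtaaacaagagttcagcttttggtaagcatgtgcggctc
Zfp947: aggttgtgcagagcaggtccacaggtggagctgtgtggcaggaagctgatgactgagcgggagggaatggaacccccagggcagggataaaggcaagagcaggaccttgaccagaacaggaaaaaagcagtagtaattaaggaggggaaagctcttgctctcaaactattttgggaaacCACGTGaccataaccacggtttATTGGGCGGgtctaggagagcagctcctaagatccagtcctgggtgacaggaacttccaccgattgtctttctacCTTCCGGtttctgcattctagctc
Zfp819: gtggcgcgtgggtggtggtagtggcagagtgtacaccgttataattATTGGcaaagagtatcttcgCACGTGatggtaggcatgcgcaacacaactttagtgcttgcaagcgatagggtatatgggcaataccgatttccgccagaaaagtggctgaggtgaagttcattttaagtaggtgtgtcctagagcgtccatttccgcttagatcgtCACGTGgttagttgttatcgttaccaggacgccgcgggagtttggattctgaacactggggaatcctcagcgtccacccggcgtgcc
Zfp773: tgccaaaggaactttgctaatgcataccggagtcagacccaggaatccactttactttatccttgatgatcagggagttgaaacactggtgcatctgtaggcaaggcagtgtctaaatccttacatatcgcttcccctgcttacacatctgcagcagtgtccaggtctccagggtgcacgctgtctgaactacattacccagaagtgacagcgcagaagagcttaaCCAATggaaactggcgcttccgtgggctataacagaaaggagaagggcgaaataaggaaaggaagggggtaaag
The windows are chr13:67729124-67729423 on the minus strand for Zfp65, chr13:21944850-21945149 on the plus strand for Zfp184 and chr13:67484204-67484503 on the minus strand for Zfp874b. Those of the 3 promoters that fell are chr17:22165928-22166227 on the minus strand for Zfp947, chr7:43606919-43607218 on the plus strand for Zfp819 and chr7:7136706-7137005 on the minus strand for Zfp773. A match is a run of letters and not a measured binding site.

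A RefSeq promoter sequence was matched to 173 of the 202 genes, and its start lay inside the region for 163. These promoters had a median GC content of 54.0% and 13 CpGs in 300 bases, against 62.3% and 22 in 9250 other protein-coding promoters that also lay in a region. The 106 clustered ones had a median of 11.5 CpGs and the 57 scattered ones 17. GGGCGG was in 39.3% of the Zfp promoters and in 70.5% of the other promoters. CCAAT was in 54.6% against 39.4%, and ACTACAATT in 3.68% against 0.822%. Among the remaining motifs, CCGGAAG stood at 23.3% against 19.7%, CACGTG at 9.20% against 10.9% and CTCGCGAG at 0.613% against 2.26%. All 4 Zfp promoters that fell held CCAAT, as did 2 of the 4 that rose and had a sequence. These are counts over few promoters and were not tested.

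On the deposited scale the Zfp promoters were centred on no change between CSE-KO and WT, while the other protein-coding promoters were centred on a small gain. The median log2 change of the 205 Zfp promoter regions, as CSE-KO minus WT, was 0.0043, and 104 of them (50.7%) lay above zero. The 11220 protein-coding promoter regions without a Zfp symbol, zinc finger genes with a Znf symbol among them, had a median of 0.12, with 63.6% above zero. Rescaling the libraries to equal totals put the Zfp median at -0.053 and the other promoters at 0.067, and rescaling to an equal median ratio over promoters put them at -0.10 and 0.019. Across the 15 alternative analyses of the whole table the Zfp median stayed 0.10 to 0.14 below that of the other promoters. No test of the set was made, and the sign of the Zfp median itself depended on the scaling and the libraries used.

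The same difference can be read in each library. The mean log2(value + 1) of the Zfp promoters exceeded that of the other protein-coding promoters by 0.159, 0.148 and 0.127 in WT replicates 1 to 3. In CSE-KO replicates 1 to 3 the excess was 0.0417, 0.0273 and 0.0270. Every WT library was above every CSE-KO library, with means of 0.145 ± 0.016 and 0.0320 ± 0.0084 (SD, n = 3 each). As a share of all deposited values, the Zfp promoters held 0.680% ± 0.010 in WT against 0.653% ± 0.013 for CSE-KO (SD, n = 3). The other protein-coding promoters held 38.5% ± 0.74 and 41.3% ± 0.92. In bulk cells, a region that is open in fewer cells and one that is less open in each cell cannot be told apart.

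**Figure D1:**
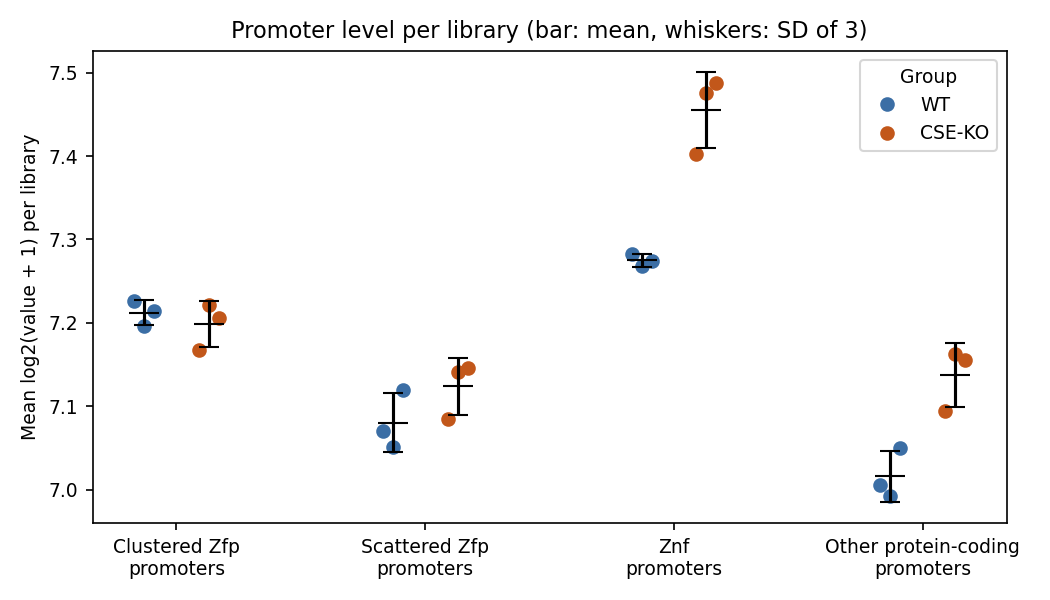
Mean log2(value + 1) in each library (points), with the mean and SD of 3 libraries, for 4 sets of promoter regions: clustered Zfp, scattered Zfp, Znf, and all protein-coding promoters that are no Zfp member (this last set includes the Znf ones). The vertical axis does not start at 0. The clustered Zfp means were 7.21 in WT and 7.20 in CSE-KO, while the other protein-coding promoters went from 7.02 to 7.14 and the Znf promoters from 7.28 to 7.46.

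Few single Zfp promoters passed the test. Of the 205, 6 rose and 4 fell at an adjusted p under 0.05 (limma with Benjamini-Hochberg adjustment over 58129 regions), or 4.88%, against 6.86% of all protein-coding promoter regions and 17.3% of all regions. By direction, 2.93% of the Zfp promoters rose and 1.95% fell, against 4.93% and 1.93% of all protein-coding promoters. With equal totals the split was 4 higher and 8 lower, or 5.85% against 6.43% of the non-member promoters. With the equal promoter ratio it was 2 higher and 13 lower, or 7.32% against 6.48%, so the lower share of the Zfp promoters depended on the scaling. WT and CSE-KO values did not overlap at 36 Zfp promoters that were higher and 33 that were lower, or 33.7% in all, against 35.3% of all protein-coding promoters (24.8% higher and 10.5% lower). For 171 of the 205 the 95% confidence interval of the change lay within 2-fold in either direction, and for 66 it lay within 1.5-fold. The changes ran from -1.05 to 1.23, with quartiles of -0.22 and 0.23.

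The count was also read by level, and the order of the shares was not the same at every level. Zfp promoter regions had a median mean value of 155, close to the 164 of all protein-coding promoters. Among those with a mean value from 50 to 100, 4 of 37 passed the test, against 11.4% of the non-member promoters at that level. From 100 to 200 it was 3 of 88 against 8.12%, and from 200 to 400 it was 0 of 56 against 3.89%. Below 50 it was 2 of 12 against 8.38%, and at 400 or more 1 of 12 against 2.89%, so that the Zfp share was the higher one in both end classes. The median change was below that of the non-member promoters in each of the 5 level classes, at 0.12, -0.062, 0.035, 0.0040 and -0.060 in ascending order of level against 0.15, 0.20, 0.17, 0.091 and 0.013. The lowest and the highest class held 12 Zfp promoters each.

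**Figure D2:**
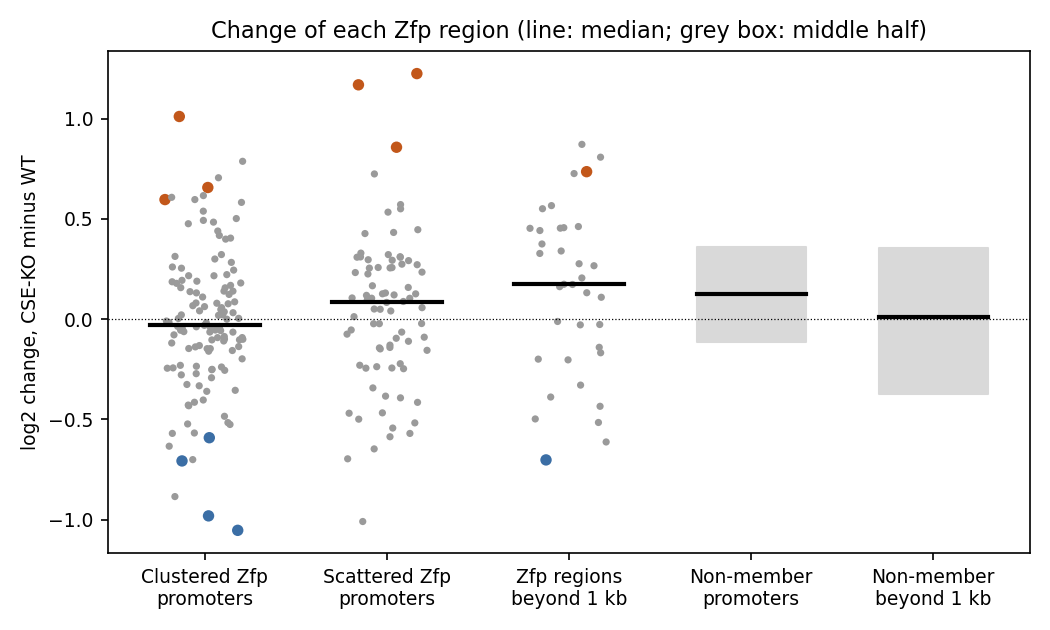
log2 change, CSE-KO minus WT, of each Zfp region (points) in clustered promoters, scattered promoters and regions beyond 1 kb, with the median as a black line; orange and blue points passed the test as higher and lower. Grey boxes give the quartiles and the median of non-member protein-coding regions. The Zfp promoters centre near 0.0043, below the 0.12 of the non-member promoters.

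The 6 promoter regions that rose came from 3 clustered and 3 scattered genes. Zfp711, an X-linked gene related to Zfx, had low values of 11, 12 and 25 in WT against 31, 35 and 44 in CSE-KO at chrX:112600536-112600847. The groups did not overlap, and the log2 change was 1.23 ± 0.32 (SE, adjusted p = 0.0411), while its second region, 1128 bp from the start, had an adjusted p of 0.871. Zfp65 (chr13:67729047-67729301) had 17, 27 and 18 against 36, 52 and 39, a change of 1.01 ± 0.24 (SE, adjusted p = 0.0309). Zfp85os, on the other strand, starts within 1 kb of the same region, which cannot be divided between the 2 genes. Zfp184 (chr13:21944896-21945620) had 88, 107 and 101 against 198, 213 and 136, a change of 0.86 ± 0.22 (SE, adjusted p = 0.0376). CSE-KO replicate 3 was the lowest of its group there and still above every WT library. A second region of Zfp184, upstream, had 188, 180 and 202 against 250, 253 and 279 (0.45, adjusted p = 0.0864).

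Both smallest rises were in cluster genes and were even across libraries. Zfp874b (chr13:67483757-67484502) had 113, 108 and 104 in WT against 183, 176 and 156 in CSE-KO, a change of 0.66 ± 0.16 (SE, adjusted p = 0.0317). Part of its promoter is shared with Zfp874a: 8 of its 263 stretches of 38 bases, the read length, also occur there, so reads could be split between the pair. The Zfp874a promoter had a change of 0.49 (adjusted p = 0.0659). Zfp27 (chr7:29906124-29906715) had 76, 75 and 67 against 111, 104 and 116, a change of 0.60 ± 0.16 (SE, adjusted p = 0.0410).

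All 4 promoter regions that fell were in clusters. Zfp947 (chr17:22165478-22166287) fell from 186, 151 and 147 in WT to 69, 80 and 82 in CSE-KO, a change of -1.05 ± 0.18 (SE, adjusted p = 0.0108). Zfp819 (chr7:43606991-43607556), a KRAB zinc finger gene, fell from 71, 70 and 71 to 33, 31 and 43, a change of -0.98 ± 0.18 (SE, adjusted p = 0.0143). The groups were well apart in both. Zfp773 (chr7:7136455-7136847) fell from 93, 83 and 69 to 51, 51 and 46, a change of -0.71 ± 0.18 (SE, adjusted p = 0.0362). Its second region, 3953 bp upstream, did not pass the test and had the opposite sign, with 68, 54 and 43 against 78, 84 and 64 (0.46, adjusted p = 0.186). Zfp869 (chr8:69716418-69717401), among the Zfp promoters with the highest WT means, fell from 681, 567 and 567 to 407, 381 and 412, a change of -0.59 ± 0.16 (SE, adjusted p = 0.0475). Gm51532, on the other strand, starts within 1 kb of this region, which cannot be divided between Zfp869 and Gm51532.

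**Figure D3:**
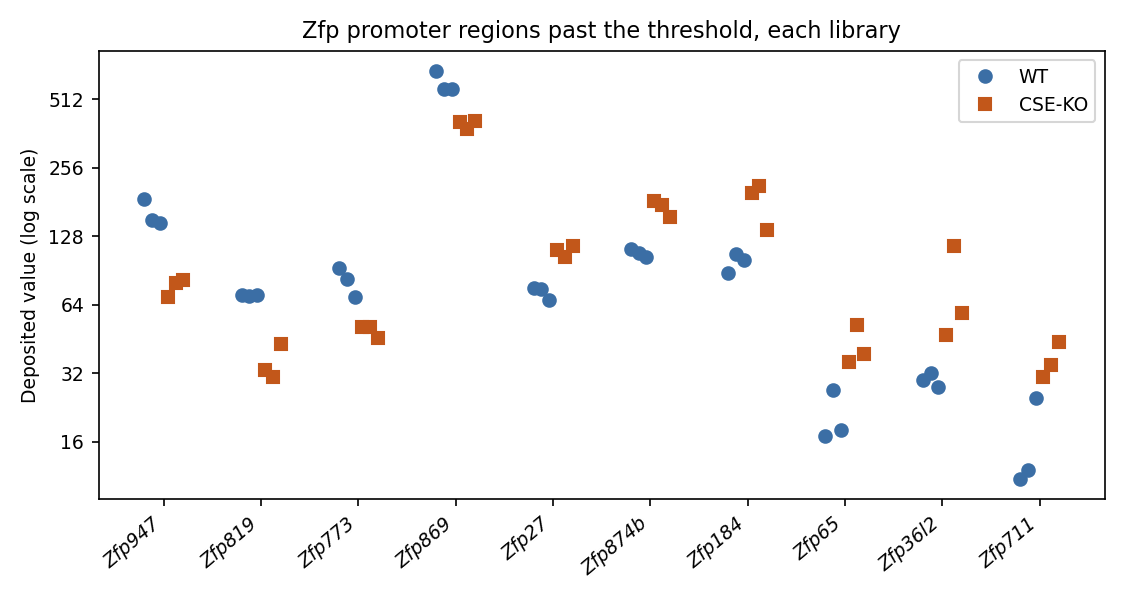
Deposited value in each library, on a log scale, for the 10 Zfp promoter regions that passed the test, ordered by change; circles are WT and squares CSE-KO. The groups do not overlap in any of them, and the values span from 11 (Zfp711 in WT) to 681 (Zfp869 in WT).

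These calls are sensitive to single libraries. Together with the 2 calls beyond 1 kb described below, 12 member regions passed. Leaving out WT replicate 1, 2 or 3 kept 1, 2 and 2 of them, and leaving out CSE-KO replicate 1, 2 or 3 kept 5, 3 and 5, every one with its direction unchanged. Without WT replicate 3, 3493 regions passed in the whole table, against 10057 with all libraries. Zfp947 passed in all 15 alternative analyses, with adjusted p between 0.000117 and 0.0485. Zfp819 was lost in 3 of those that left out a library, with a highest adjusted p of 0.0602. The other 10 were lost in 4 to 9 of the 15, with highest adjusted p between 0.108 and 0.156.

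By the start that the table assigns, the 36 Zfp regions beyond 1 kb were upstream of the gene (16), in its body (19) or past its end (1). Several of them lay close to the RefSeq start of the gene, among them those of Zfp558 (9 bp), Zfp738 (16 bp), Zfp791 (50.5 bp) and Zfp229 (96.5 bp). The set is therefore a mix of distal regions and promoters by RefSeq. Of these 1 rose and 1 fell, or 5.56%, against 15.8% of the regions beyond 1 kb that were assigned to a protein-coding gene (7.41% higher and 8.36% lower). Their median change was 0.17, with 22 of 36 above zero. In the body of Zfp236, 1282 bp from its start (chr18:82691467-82691735), values rose from 44, 34 and 38 to 57, 72 and 66, a change of 0.74 ± 0.18 (SE, adjusted p = 0.0344). The Zfp236 promoter itself changed by 0.013 (adjusted p = 0.969). Upstream of Zfp691, 4421 bp from its start (chr4:119178444-119178787), values fell from 53, 59 and 54 to 33, 28 and 41, a change of -0.70 ± 0.19 (SE, adjusted p = 0.0451). The Zfp691 promoter changed by -0.23 (adjusted p = 0.379), so that at neither gene did the promoter pass the test with its distal region. Groups did not overlap at 15 of the 36, in 9 upwards and 6 downwards, against 38.2% of such regions of protein-coding genes (18.4% higher and 19.8% lower).

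Clustered and scattered genes were then compared. The 125 clustered promoters had a median log2 change of -0.031, with 58 above zero, 3 called higher and 4 called lower. The 80 scattered promoters had a median of 0.086, with 46 above zero, 3 higher and 0 lower. The called shares were 5.60% and 3.75%, against 6.86% of all protein-coding promoters (4.93% higher and 1.93% lower). At a share of 1.93%, the absence of a lower call among 80 promoters is close to the background. In mean log2(value + 1) the clustered promoters exceeded the scattered ones by 0.155, 0.145 and 0.0940 in WT against 0.0828, 0.0804 and 0.0604 in CSE-KO, so that the lowest WT library was above the highest CSE-KO library. The difference of the means, CSE-KO minus WT, was -0.057. Its sign turned when only runs of 5 or more genes counted as clusters: the medians were then 0.0018 and 0.013, and the difference of the means was 0.042. The comparison therefore rests on the clusters of 3 and 4 genes. Without WT replicate 1 the clustered median was 0.011, and without WT replicate 2 the scattered median was 0.010. Other protein-coding promoters within the spans of the clusters, 68 in all, had a median of 0.091, with 2 higher and 2 lower. Only Zfp symbols were left out of this set. It therefore holds zinc finger genes with a Znf symbol, such as Znf568 and Znf569 between Zfp84 and Zfp566, and is no contrast with genes outside the family.

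Cluster medians ran from -0.47 to 0.31, with 8 above zero and 14 below, and 16 of the 22 clusters had no promoter that passed the test. The largest cluster, Zfp160 to Zfp13 on chromosome 17 (chr17:21008678-23599627), had 21 promoter regions with a median of -0.036. It ran from Zfp947 at -1.05 to Zfp213 at 0.58, with 8 above zero and 13 below. The next, Zfp712 to Zfp273 on chromosome 13 (chr13:67060217-67814677), had 15 promoter regions with a median of 0.0036, and both Zfp65 and Zfp874b rose there. Its lowest member, Zfp748, had a change of -0.52 (adjusted p = 0.0627). In both clusters promoters lay on either side of zero.

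Only 2 of the 22 clusters had every promoter on 1 side of zero, which is easier to reach with few promoters. Other small clusters were wide, as the 4 promoters from Zfp715 to Zfp819, which ran from -0.98 to 0.30. On chromosome 7, which held 9 clusters and 48 clustered genes, the cluster from Zfp84 to Zfp566 (chr7:29768188-30090888) had a median of 0.27, with 7 of 10 promoters above zero, from Zfp940 at -0.15 to Zfp27 at 0.60. The cluster from Zfp606 to Zfp446 had all 4 promoters below zero, and that from Zfp41 to Zfp707 on chromosome 15 had all 3 above. The lowest median, -0.47, was that of the 4 promoters from Zfp954 to Zfp772, where Zfp773 fell and Zfp954 was close to it at -0.70 (adjusted p = 0.0788). The highest, 0.31, was from Zfp747 to Zfp646, where none of the 4 passed.

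**Figure D4:**
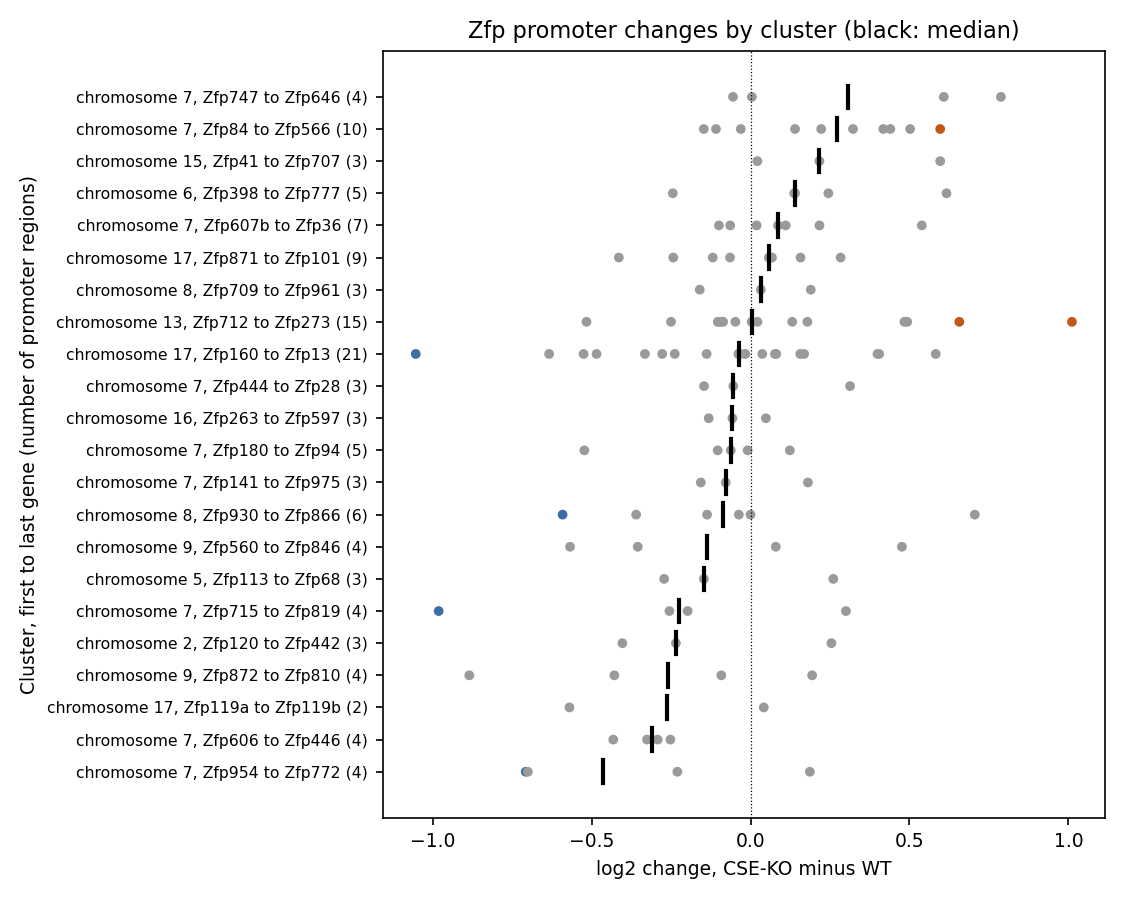
log2 change, CSE-KO minus WT, of each Zfp promoter region (points) in the 22 clusters, ordered by median (black bars); the number of promoter regions is in brackets, and orange and blue points passed the test as higher and lower. The medians run from -0.47 to 0.31, and the 2 largest clusters hold changes on both sides of zero.

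Members with better known roles mostly did not pass the test. Zfp91, a zinc finger protein with ubiquitin ligase activity, had the Zfp promoter region with the highest WT mean. Its values were 758, 750 and 750 against 580, 760 and 846 (-0.064, adjusted p = 0.843). The region is 2257 bp wide, against a median of 754 bp for the Zfp promoters, and values were not divided by width. Zfp788 followed with 642, 623 and 566 against 588, 499 and 640 (-0.090, adjusted p = 0.749). Lpxn and Gm51480, on the other strand, start within 1 kb of the Zfp91 and the Zfp788 region. Zfp446 had 537, 488 and 509 against 335, 381 and 425, without overlap, yet its change of -0.43 did not pass (adjusted p = 0.117). Zfp384, a broadly expressed transcription factor gene, likewise had 239, 217 and 261 against 162, 141 and 174 (-0.59, adjusted p = 0.0556). It passed in 5 of the 15 alternative analyses, with adjusted p of 0.0337 (equal promoter ratio), 0.0428 (equal totals), 0.00416 (limma's trend and robust options), 0.0363 (minimum mean of 20) and 0.0456 (pseudocount of 5), and its highest adjusted p was 0.175, without WT replicate 3. Those limma options alone also brought Zfp446 past the threshold (adjusted p = 0.00570). Zfp809, whose protein silences retroviral DNA through a KRAB domain, had a change of -0.092 (adjusted p = 0.741). The region nearest Zfp57, a KRAB gene needed to keep methylation at imprinted loci, changed by 0.13 (adjusted p = 0.633). The table puts it in the gene body, 1585 bp from its start, but it lay 223 bp from the RefSeq start. Zfp106 and Zfp292 had changes of 0.72 (adjusted p = 0.115, and 0.0262 with limma's trend and robust options) and -0.022 (adjusted p = 0.955).

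The CCCH genes had 8 regions, of which 1, a promoter region, passed the test. Among all protein-coding promoter regions 6.86% passed, and 15.8% of the regions beyond 1 kb assigned to a protein-coding gene. Zfp36l2 had a wide promoter region (chr17:84187503-84188925) with 479, 414 and 433 in WT against 340, 424 and 431 in CSE-KO (-0.16, adjusted p = 0.569). A narrow region 737 bp into the gene (chr17:84187091-84187328) rose from 30, 32 and 28 to 47, 116 and 59, a change of 1.17 ± 0.33 (SE, adjusted p = 0.0495). CSE-KO replicate 2 was far above the other two there, and without it the change was 0.79 (adjusted p = 0.0428). The Zfp36 promoter region changed by 0.11 (adjusted p = 0.746) and its upstream region by -0.17 (adjusted p = 0.471). The 3 regions of Zfp36l1 had changes of 0.45, 0.34 and -0.39 with adjusted p of 0.138, 0.290 and 0.142.

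The rule does not reach every zinc finger gene of the kind, because the table gives many of them a symbol of Znf followed by a number. Of 15 genes that were to be named and had no member region, several appear in the table this way: Znf143, Znf148, Znf281 and Znf423 are examples. Among these examples only Znf148 had a promoter region that passed the test. Znf143 changed by -0.062 (adjusted p = 0.816) and Znf281 by 0.35 (adjusted p = 0.238). The Znf423 region with its centre nearest the RefSeq start changed by 0.11 (adjusted p = 0.652). A second Znf423 promoter region changed by -0.285 (adjusted p = 0.360). Znf462, also among the 15, had a gene body region that rose from 17, 18 and 17 to 57, 90 and 39 (1.70, limma adjusted p = 0.0121). Its promoter region changed by 0.70 (adjusted p = 0.0501). RefSeq lists 397 protein-coding Zfp genes. At their starts lay 280 regions of the table, of which 177 were members, 75 had a Znf symbol and the others had another symbol, no symbol or no gene. Of the 331 with a start in the promoter table, 85.2% had a region within 1 kb, against 57.8% of other protein-coding genes.

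The Znf promoters, a set added after the values had been seen, had changes close to those of the other promoters and above those of the Zfp ones. The 93 Znf promoter regions, in 90 genes, had a median change of 0.15, with 70 (75.3%) above zero. Of them 3 were called higher and 0 lower, or 3.23%, against 6.93% of the protein-coding promoters that are neither Zfp nor Znf. Their mean log2(value + 1) exceeded that of the other protein-coding promoters by 0.277, 0.277 and 0.224 in WT against 0.309, 0.312 and 0.332 in CSE-KO. That excess was higher in every CSE-KO library than in any WT library, while for the Zfp promoters it was lower in each. Across the 15 alternative analyses the Znf median stayed 0.080 to 0.17 above the Zfp median, while against the other promoters it ran from 0.026 below to 0.055 above. With both kinds of symbol in 1 set the median of 298 promoter regions was 0.065. No test of the difference between the sets was made. Of the 36 Znf regions beyond 1 kb, 2 were called higher (Znf462 and Znf639) and 1 lower (Znf787). That was 8.33%, against 15.8% of the regions beyond 1 kb that were assigned to a protein-coding gene.

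The 3 Znf promoters that rose were Znf148, Znf583 and Znf609. Znf148 (chr16:33380423-33381469), which encodes a Krüppel-type zinc finger factor, had 139, 163 and 147 against 217, 309 and 264, a change of 0.80 (adjusted p = 0.0308). Znf583 (chr7:6330655-6331477) had 77, 60 and 60 against 144, 155 and 102, a change of 1.00 (adjusted p = 0.0244). Znf609 had a region 693 bp from its start (chr9:65826691-65827050) with 36, 36 and 37 against 90, 80 and 84, a change of 1.20 (adjusted p = 0.00539). The groups did not overlap at any of the 3. A wider Znf609 promoter region, 20 bp from the start, had 95, 112 and 134 against 144, 173 and 208. It did not pass (0.62, limma adjusted p = 0.0894). The Znf609 region 693 bp from the start passed in every analysis that left out a library, with adjusted p up to 0.0325. Without WT replicate 1, 2 or 3, or without CSE-KO replicate 2, neither of the other two passed, Znf148 was lost without CSE-KO replicate 3 (adjusted p = 0.0610), and Znf583 without CSE-KO replicate 1 (adjusted p = 0.0541).

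Base composition, which differs between the sets, also moved with the change. Promoters were matched to a RefSeq start inside the region and split by their CpGs in 300 bases. With 0 to 9 CpGs the median change was -0.062 in 47 Zfp promoters and 0.044 in 593 other coding promoters. With 10 to 19 it was -0.018 in 77 against 0.10 in 2180, and 0.13 in 26 Znf promoters. At 20 or more it was 0.032 in 43 Zfp, 0.18 in 36 Znf and 0.12 in 4765 other promoters. The Zfp median was the lowest in each class, and it rose with CpG number, as that of the other promoters did. A start shared with another gene made little difference: 25 Zfp promoters with another gene's start on the other strand within 1 kb had a median of 0.037, and the other 180 a median of 0.0040.

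The genes through which KRAB zinc finger proteins act were also read from the table. Of a list of 33 symbols, 29 had 35 regions, with a median change of 0.29. Trim28, Atf7ip, Tasor and Fam208a had none under those symbols, so that Trim28 itself was not read. Of these, 28 were promoter regions, of which 1 rose and 0 fell (limma), against 6.86% of all protein-coding promoter regions, and none of the other 7 regions passed. The region that rose was the promoter of Kdm1a, a histone lysine demethylase, with 120, 142 and 107 against 186, 250 and 207 (0.80, adjusted p = 0.0336). The list had no call without WT replicate 1, 2 or 3 or without CSE-KO replicate 2, 3 higher without CSE-KO replicate 1, and 1 lower without CSE-KO replicate 3. The promoter of Setdb1, the histone H3 lysine 9 methyltransferase recruited by Trim28, had a change of 0.31 (adjusted p = 0.231). The heterochromatin protein gene Cbx5 had a change of -0.53 (adjusted p = 0.0829). For 28 promoter regions of the list the median was 0.20, above the 0.12 of the protein-coding promoters, and this was not tested.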

How the data were processed

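ATAC-seq libraries of 50000 mouse lung endothelial cells each were sequenced as 38 bp read pairs, per the labels. The tools named by the submitters' processing notes are DESeq2 1.26.0, Picard 3.1.1, STAR 2.7.3a and Trimmomatic 0.39, on build mm10. No source used here names the peak caller or a Tn5 shift. The deposited values are whole numbers already scaled between libraries and were treated as a score, not as counts. The deposited distance of each region's centre to the assigned start, a value of another kind, set the promoter class. Values of 58129 of 58172 regions with a mean of at least 5 were tested on the log2(value + 1) scale with R 4.3.3 and limma 3.58.1 (trend and robust off), WT subtracted from CSE-KO, at a Benjamini-Hochberg adjusted p of 0.05. All 241 members passed the filter. The test was tested on simulated data. Members, motifs, marker and gene lists were chosen with earlier results of these data known. Genes are named if their region passed the test without overlap and with a mean of at least 20, up to 12 in each direction. Also named are the 4 promoters with the highest WT mean and genes on a list of well known members. Other genes named in the text, among them all Znf genes, were chosen after their values were seen. Symbols are those of the table, and starts, promoter sequences and the count of Zfp genes are from RefSeq on GRCm38.p6. Alternatives changed the pseudocount, the filter, the scaling, the limma options, the cluster rule and the promoter distance, added a replicate block, and left out each library.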

Additional observations from a re-analysis of the deposited data

How the results depend on the processing

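The labels give both groups replicates 1 to 3, but same-numbered libraries did not deviate together (correlations of -0.006, -0.011 and 0.010), so the numbers were not taken as pairs. With a replicate block 6013 regions passed in the whole table, 4 Zfp promoters (2 higher and 2 lower), 0 other Zfp regions and 0 regions of the corepressor list. The Zfp promoter share was 1.95%, against 2.38% of the non-member promoters. With limma's trend and robust options the counts were 15448 of 58129, 42 (21 higher and 21 lower), 8 of 36 and 11 of 35. The Zfp promoter share was then 20.5%, against 22.6% of the non-member promoters. A minimum mean of 20 gave 24 Zfp promoters (11.9% against 11.6% of the non-member promoters) and 4 corepressor regions, a pseudocount of 5 gave 17 (8.29% against 9.09%) and 3, and quantile normalization 2 corepressor regions and a clustered median of 0.0028. With an equal median ratio over promoters the median log2 change was -0.101 for all Zfp promoters, -0.136 for clustered and -0.019 for scattered ones; with equal totals it was -0.053, -0.088 and 0.029. Rescaling to the promoter ratio moved the median of all regions from -0.0041 to -0.11. Clusters of 5 or more genes gave medians of 0.0018 and 0.013 and a clustered minus scattered difference of 0.042. A promoter limit of 2500 bp left 1 call among the other Zfp regions. Chosen after seeing the data, a mean above 100 left 4 Zfp promoter calls, and adding Znf symbols gave a median of 0.065. In the level classes from 100 up, 8.12%, 3.89% and 2.89% of the non-member promoters passed. Leaving out 1 library at a time, counts ran from 3493 to 8918 for all regions, 1 to 6 for Zfp promoters, 0 to 3 for other Zfp regions and 0 to 3 for the corepressor list. The Zfp promoter share ran from 0.488% to 2.93%, and that of the non-member promoters from 1.15% to 5.54%. The medians then ran from -0.036 to 0.037 for Zfp promoters, -0.052 to 0.011 for clustered and 0.010 to 0.088 for scattered ones. None of the 12 called Zfp regions changed sign in any alternative. Why the counts moved was not tested, save that leaving out a library leaves fewer samples. The CSE-KO values rest on fewer reads.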
